A study of Mus musculus with 80 samples.

Results

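The genes of the mitochondrial ribosome were followed in mouse embryonic stem cells (ESCs) that moved from serum medium to 2i. The members were all genes of the expression table whose symbol starts with Mrpl or Mrps and a digit, pseudogenes left out, which gave 76 of 25965 genes. RNA-seq covered E14 ESCs, a wild-type line, in serum with LIF and after 6, 24 and 72 h in 2i, with 3 samples per group. 2i is a serum-free medium with LIF, a MEK inhibitor and a GSK3 inhibitor. The histone mark H3K9me2 was read by ChIP-seq in serum, after 24 h in 2i and in ESCs kept long-term in 2i (LT2i), with 2 bound samples and 1 input per group. The ESC identity of the 12 RNA-seq samples was checked on 12 ESC markers, which all passed the filter on low values. At 72 h, 6 were called higher and 4 lower against serum (24.5% and 25.8% of all tested genes). Pou5f1 read a mean of 8.29 in serum and 8.21 at 72 h, and Sox2 7.28 and 7.47. Means rose for Nanog (6.78 to 8.49), Klf2 (6.12 to 7.46), Klf4 (5.28 to 6.63), Esrrb (5.80 to 6.75), Tfcp2l1 (4.67 to 6.35) and Dppa3 (3.87 to 5.88). They fell for Utf1 (7.80 to 4.36), Lin28a (6.73 to 2.81), Sall4 (6.07 to 5.10) and Zfp42 (7.70 to 7.03). Of 14 markers of differentiated cells, 5 passed the filter on low values, and the summed level of that list ran from 6.87 to 7.01 in serum, from 6.72 to 7.33 at 24 h and from 6.11 to 6.73 at 72 h. That sum mostly follows Krt8 and Krt18 (serum means of 5.82 and 5.66, with Nes next at 2.83). Below the filter, Fgf5 went from 0.22 in serum to -5.04 at 72 h, Pax6 from -0.04 to -2.71 and Gata4 from -0.70 to 0.22.

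Mitochondria make a small set of inner-membrane proteins on ribosomes of their own. The RNAs of these ribosomes are encoded in mitochondrial DNA, whereas all of their proteins are encoded in the nucleus, made in the cytosol and imported. Many of the proteins have a counterpart in bacterial ribosomes, and others were added during the evolution of mitochondria. Genes of this group tend to be short and broadly expressed, and many of their promoters hold sites for NRF1, ETS factors such as GABP, or YY1.

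RefSeq promoter windows of GRCm38.p6 (250 bases before the start of transcription and 50 after it) were found for 67 of the 76 members. They were searched on both strands for 5 sets of letters, NRF1 (CGCATGCG), ETS (CCGGAAG), YY1 (AAGATGGC), the CCAAT box (CCAAT) and the E-box (CACGTG), none of which contains another. The ETS letters were in 24 of the 67 members (35.8%), against 9.93% of all 27025 genes with a window and 21.7% of the 7752 that were also tested for expression. The YY1 letters were in 12 members (17.9%), against 3.19% of all genes and 5.66% of tested genes. The NRF1 letters were in 7 members (10.4%), against 2.07% and 4.94%. The CCAAT box was in 27 members (40.3%, against 41.1% and 44.3%) and the E-box in 5 (7.46%, against 8.09% and 12.7%). A match describes the letters of the window and not a bound site. For 31 of the 67 members the window before the start also held another gene, to which a match can belong. The share of such windows over all genes is not given, and the 4 windows printed below are not among the 31. The following 4 windows, each of the 250 bases before the start, read 5′ to 3′ with matches in capitals, show the range among members whose expression is described below. The Mrpl9 window (chr3:94443086-94443335, plus strand) holds the NRF1 letters, which begin 27 bases before the start. The Mrps18a window (chr17:46110754-46111003, plus strand) holds the ETS letters at 26 bases and a CCAAT box at 196 bases before the start. Mrps18a is also counted with the YY1 letters, which do not lie within the printed 250 bases. The Mrps36 window (chr13:100744660-100744909, minus strand) holds a CCAAT box on the opposite strand at 86 bases. The Mrps2 window (chr2:28467816-28468065, plus strand) holds none of the 5.
Mrpl9: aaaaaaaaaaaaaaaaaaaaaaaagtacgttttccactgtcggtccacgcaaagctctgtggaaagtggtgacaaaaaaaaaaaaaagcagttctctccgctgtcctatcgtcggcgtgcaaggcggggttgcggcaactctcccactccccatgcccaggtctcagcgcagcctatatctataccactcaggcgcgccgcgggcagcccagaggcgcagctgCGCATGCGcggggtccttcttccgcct
Mrps18a: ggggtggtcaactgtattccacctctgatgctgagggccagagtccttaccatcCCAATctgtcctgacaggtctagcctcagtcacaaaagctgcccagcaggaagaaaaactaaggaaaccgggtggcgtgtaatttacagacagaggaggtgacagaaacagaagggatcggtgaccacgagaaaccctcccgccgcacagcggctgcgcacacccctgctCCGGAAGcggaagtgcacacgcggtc
Mrps36: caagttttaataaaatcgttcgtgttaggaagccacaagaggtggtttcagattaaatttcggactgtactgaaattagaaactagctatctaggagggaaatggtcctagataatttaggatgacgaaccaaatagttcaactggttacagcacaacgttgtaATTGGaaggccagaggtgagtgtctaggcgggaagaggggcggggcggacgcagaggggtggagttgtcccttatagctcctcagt
Mrps2: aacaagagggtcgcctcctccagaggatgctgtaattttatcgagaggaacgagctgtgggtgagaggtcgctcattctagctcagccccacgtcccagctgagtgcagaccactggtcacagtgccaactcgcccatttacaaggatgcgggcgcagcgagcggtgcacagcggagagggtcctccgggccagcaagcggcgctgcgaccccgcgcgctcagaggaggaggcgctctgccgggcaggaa

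Expression is given as a log2 value per gene, corrected by the authors for gene length and library depth. The gene lengths used were not given, so comparisons of level between genes rest on that correction, which was not checked. All 76 members passed the filter on low values (a mean of 0 or more over the 12 libraries), as did 11376 genes in all. In serum the members ran from a mean level of 1.53 for Mrpl33 to 6.48 for Mrpl42. The median member stood at 4.21, 4.35 and 3.91 in the 3 serum libraries, above the median tested gene at 2.84, 2.86 and 2.85. Mrpl12, the stalk protein that contacts translation factors, was among the higher members (5.49 ± 0.28, SD, n = 3). The members were short, with a median gene span of 7733 bp against 20270 bp for all tested genes. The spans of 25 of the 76 members overlap another listed gene. As the library kit does not mark strand, reads in the shared bases of such pairs could not be told apart. Overlap was counted on whole spans, introns included, and its extent within exons was not examined. Besides Mrpl14 and Mrpl48, the overlapping members include Mrpl27 (Eme1), Mrpl33 (Bre and Rbks), Mrpl44 (Wdfy1) and Mrpl47 (Actl6a and Ndufb5). They also include Mrps6 (Slc5a3 among others), Mrps18a (Rsph9) and Mrps18b (Gm16279).

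At 24 h in 2i most of the mitochondrial ribosomal protein genes had a positive change against serum, and more than at 72 h were called higher. A gene was called when limma gave a Benjamini-Hochberg adjusted p under 0.05 over all tested genes. As these were bulk samples, a change in the cells that make a transcript and one in its amount per cell could not be told apart. At 24 h, 41 of the 76 members were called higher (33.6% of all tested genes were) and 1 was called lower (29.0% of all). The median log2 change of the members was 0.52, against 0.10 for all tested genes, and 71 of 76 changes were positive. At 72 h, 6 members were called higher (24.5% of all tested genes) and 1 lower (25.8% of all), with a median change of 0.15 against -0.01 for all, and 48 of 76 changes were positive. That count moved with the setting, to 8 higher (26.1% of all tested genes) and 6 lower (27.6%) with a trend on gene span removed, and to 14 (25.9%) and 3 (26.9%) after quantile normalisation. Without replicate 3 of 72 h it was 11 (24.9%) and 1 (25.8%), and without the 4 libraries numbered 3, a setting chosen after seeing the data, 20 (28.6%) and 4 (28.5%). The median fell to -0.03 without replicate 2 of 72 h. At 6 h no member was called in limma, against 14.3% of all tested genes, and 1, Mrpl34, had an unadjusted p under 0.05. Same-numbered samples deviated together in serum with 6 h and in serum with 24 h. A fit with the replicate number as a block was therefore set beside these comparisons. Some samples with other numbers did so too, as replicate 2 of serum with replicate 1 of 24 h (correlation 0.45, against 0.13 to 0.54 for same numbers). The block ran over all 12 libraries, 72 h included, where same-numbered samples did not all deviate together. The blocked fit called 52 members higher at 24 h (38.6% of all tested genes) and 1 lower (32.0% of all). At 6 h it called 2 members lower, Mrpl34 and Mrpl44, against 19.9% of all genes called in either direction. The median change at 6 h was -0.09 for the members and 0.01 for all genes. The 3 comparisons share the serum samples, so they are not independent of each other.

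**Figure D1:**
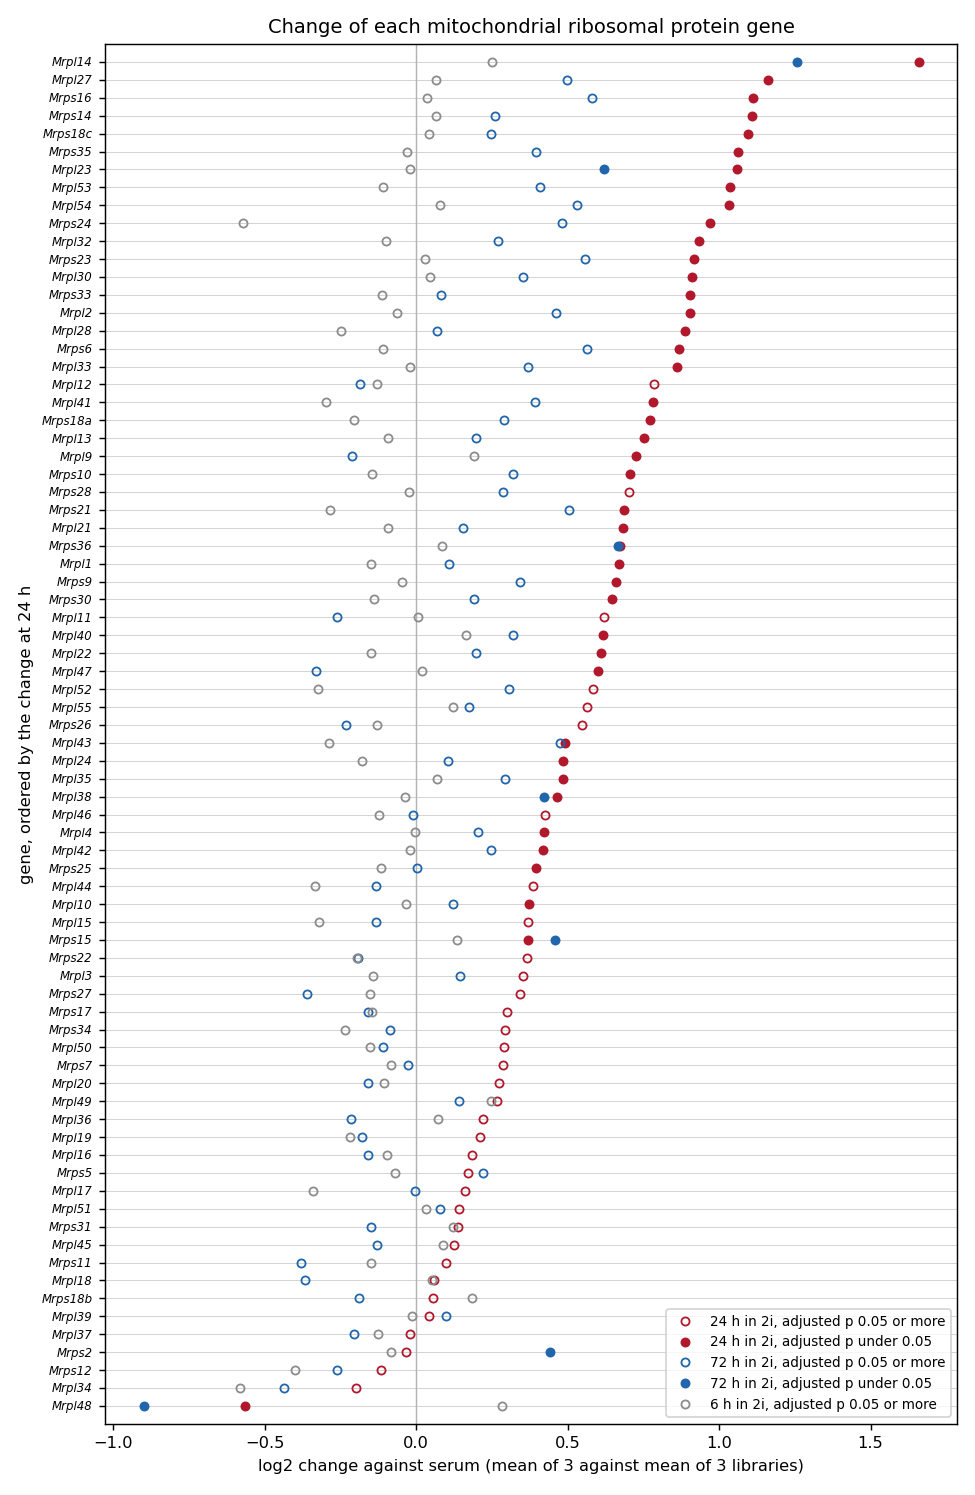
The log2 change against serum (x axis) is plotted for each of the 76 members (y axis, ordered by the change at 24 h), at 6, 24 and 72 h in 2i, each point comparing 3 libraries with 3; filled points are called at an adjusted p under 0.05. At 24 h the points run from -0.57 (Mrpl48) to 1.66 (Mrpl14), and most of the 72 h points lie between those of 6 h and 24 h.

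The 24 h libraries did not stand together. Relative to the mean of serum, the median member was at 0.84 and 0.64 in replicates 1 and 2 at 24 h, but at 0.11 in replicate 3. Replicate 3 held the lowest of the 3 values for 74 of the 76 members at 24 h, and for 40 of the 41 called higher. At 72 h the medians were 0.11, 0.47 and -0.18, and replicate 2 held the highest value for 71 members. In serum they were 0.08, 0.10 and -0.18, and at 6 h they were 0.06, -0.04 and -0.21. The third replicate was thus the lowest of its group at every time, in serum for 71 members, at 6 h for 65 and at 72 h for 70. Without replicate 3 of 24 h, 58 members were called higher at 24 h (39.8% of all tested genes) and 1 lower (31.8% of all). Fewer members were called when other libraries were left out. The number called in either direction was 24 without serum replicate 1 (55.1% of all tested genes), 26 without serum replicate 2 (55.4%) and 16 without serum replicate 3 (53.5%). It was 17 without replicate 1 of 24 h (54.2%) and 16 without replicate 2 of 24 h (53.1%). With all libraries 42 members were called, against 62.6% of all genes. Counting separation alone, the 3 values at 24 h lay above all 3 serum values for 33 members (33.8% of all tested genes). At 72 h they did so for 13 members (30.5% of all).

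**Figure D2:**
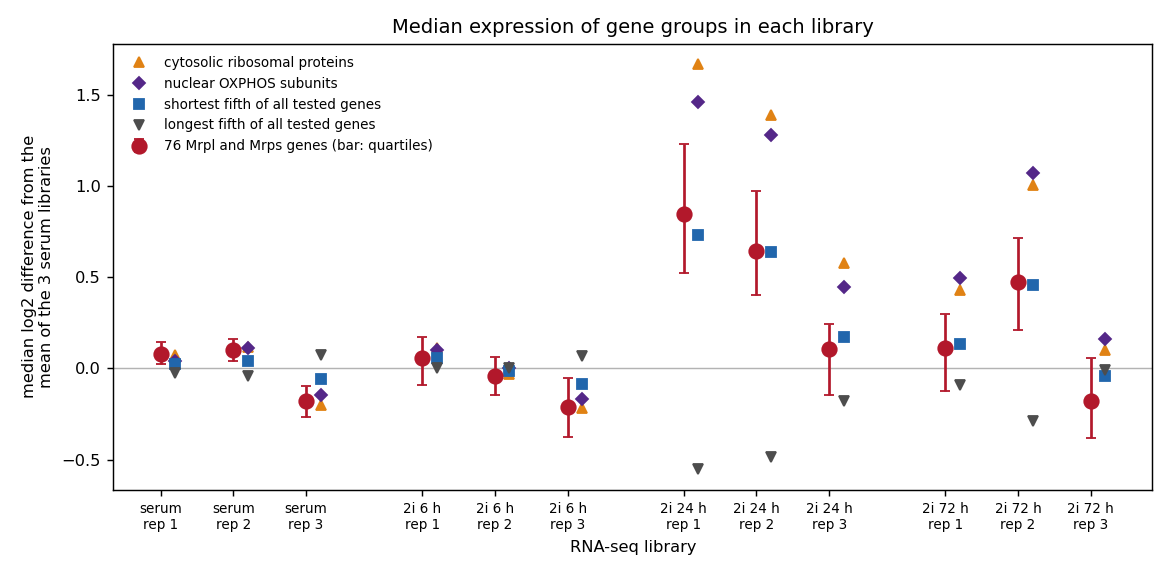
For each of the 12 RNA-seq libraries (x axis) the plot gives the median log2 difference from the mean of the 3 serum libraries (y axis) for the 76 members, with bars from the lower to the upper quartile, and for 4 other gene groups as single points. The members stand at 0.84 and 0.64 in replicates 1 and 2 of 24 h and at 0.11 in replicate 3, and the shortest of all tested genes stand at 0.73, 0.64 and 0.17 in the same libraries.

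Change at 24 h followed gene span over the whole table, to a different extent in each library, and the members are short genes. The median of the shortest class of genes minus that of the longest was 1.28, 1.13 and 0.35 in replicates 1, 2 and 3 of 24 h. It was 0.22, 0.75 and -0.03 at 72 h and between -0.16 and 0.08 in serum and at 6 h. The libraries with the wider gap by span are those in which the members stood higher, and the part of the span trend in the members' change was not tested beyond the removal of the trend described below. The tested genes were divided into 5 classes of equal size by span. In the class of the shortest genes (93 to 6207 bp), the median change at 24 h was 0.53 for all genes and 0.49 for the 31 members in it. There, 12 of 31 members (38.7%) were called higher, against 48.9% of all genes. In the next class (6208 to 14522 bp), the median was 0.60 for 30 members and 0.23 for all genes, and 21 members (70%) were called higher, against 38.5% of all genes. The remaining 3 classes held 15 members. From shorter to longer, their medians were 0.35 (7 members), 0.77 (4) and 0.52 (4), where all genes gave 0.14, -0.10 and -0.41. The members in the class of the shortest genes thus stood where other genes of that class stood, and those in the longer classes stood above their class. This is a description of the medians, and no test was made of the difference.

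**Figure D3:**
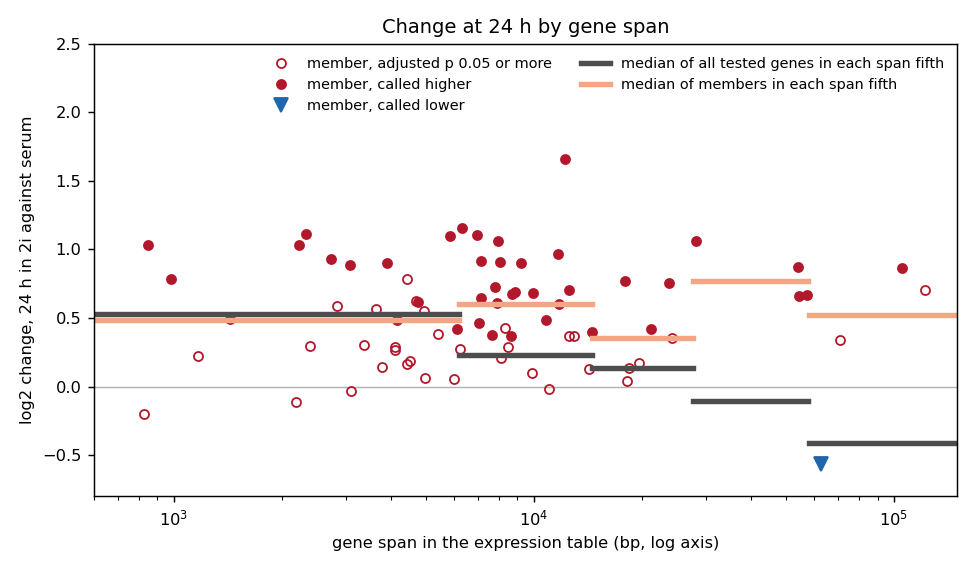
The log2 change at 24 h against serum (y axis) is plotted against the gene span in bp (x axis, log scale) for the 76 members, with bars at the median of all tested genes and of the members in each of 5 span classes, cut at the ends of the axis. The bars of all genes step down from 0.53 to -0.41 with span, and those of the members lie between 0.35 and 0.77.

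With a smooth trend on span taken out of each library, 30 members were called higher at 24 h (35.2% of all tested genes), with a median change of 0.32. Another 2 were called lower, Mrpl34 and Mrps12 (27.05% of all). Of the 41 members called higher without that step, 28 were among the 30. The median member then stood at 0.60, 0.43 and 0.04 in the 3 libraries of 24 h, so replicate 3 was still the lowest. The 24 h count is thus near the share of all genes in that setting (30 of 76 members). A total of 14 members were called higher at 24 h in each of 16 alternative settings without a fold minimum, namely Mrpl2, Mrpl9, Mrpl14, Mrpl23, Mrpl30, Mrpl32, Mrpl38, Mrps9, Mrps10, Mrps16, Mrps18a, Mrps23, Mrps35 and Mrps36, which were singled out by those calls. Of all tested genes, 23.2% were called higher in every such setting that tested them, against 14 of the 76 members.

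By subunit, 27 of 49 genes of the large subunit and 13 of 26 of the small subunit were called higher at 24 h, with median changes of 0.49 and 0.47, against 33.6% of all tested genes. With the span trend removed these counts were 16 and 13, against 35.2% of all. The last member, Mrps36, is known as an adaptor of the α-ketoglutarate dehydrogenase complex rather than as a ribosomal protein. Among large-subunit proteins, 18 of 30 with a bacterial counterpart and 9 of 19 specific to mitochondria were called higher. They were 12 and 4 with the span trend removed. Among small-subunit proteins the counts were 9 of 16 and 4 of 10 in either fit. At 72 h, 3 large-subunit and 2 small-subunit genes were called higher, against 24.5% of all genes.

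Of the large subunit, Mrpl14, a conserved protein at the interface of the subunits, had the largest change at 24 h and at 72 h. Its level was 2.77, 3.07 and 2.25 in serum, 2.98, 3.03 and 2.83 at 6 h, 4.84, 4.64 and 3.58 at 24 h and 3.86, 4.60 and 3.40 at 72 h. Every 24 h and 72 h value lay above every serum value. Its log2 change was 1.66 ± 0.36 (SE) at 24 h (3.16-fold, adjusted p = 0.00215) and 1.26 ± 0.36 at 72 h (2.39-fold, adjusted p = 0.0126, limma). The gene (chr17:45686322-45698495, plus strand) overlaps Tmem63b in the table.

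Mrpl27, which lies near the peptidyl transferase centre, read 4.02, 3.92 and 3.62 in serum and 5.68, 5.26 and 4.10 at 24 h. The groups did not overlap, but replicate 3 of 24 h was close to serum. The log2 change was 1.16 ± 0.37 (adjusted p = 0.0184, limma), and at 72 h it was 0.50 ± 0.37 (adjusted p = 0.287). Mrpl23, at the exit of the peptide tunnel, read 2.76, 2.81 and 2.63 in serum, 4.04, 3.86 and 3.48 at 24 h and 3.39, 3.55 and 3.13 at 72 h. All its 2i values at these times lay above serum, with log2 changes of 1.06 ± 0.15 (adjusted p = 0.000168) and 0.62 ± 0.15 (adjusted p = 0.0061, limma). Mrpl38, a protein specific to mitochondria that was named for its call at both times, rose less, by 0.46 ± 0.11 at 24 h and 0.42 ± 0.11 at 72 h. With the span trend removed its changes were 0.24 (adjusted p = 0.0273) and 0.35 (adjusted p = 0.00455, limma).

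Mrpl48, also specific to mitochondria, was the only member called lower, at 24 h and at 72 h, in the limma fit of the deposited values. It read 2.31, 2.31 and 2.16 in serum, 2.61, 2.46 and 2.55 at 6 h, 1.98, 1.70 and 1.40 at 24 h and 1.31, 1.41 and 1.36 at 72 h. The values at 24 h and 72 h lay below every serum value. The log2 change was -0.57 ± 0.13 at 24 h (adjusted p = 0.00391) and -0.90 ± 0.13 at 72 h (0.537-fold, adjusted p = 0.000237, limma). At 62547 bp it is among the longest members, and its 24 h change was -0.18 (adjusted p = 0.431) with the span trend removed, while the 72 h change remained called at -0.78. The gene (chr7:100545751-100608297, minus strand) overlaps Rab6a and D630004N19Rik in the table.

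Other large-subunit genes with known roles moved less or varied more between libraries. Mrpl12 read 5.67, 5.63 and 5.17 in serum and 7.00, 6.60 and 5.22 at 24 h, a change of 0.78 ± 0.43 that was not called (adjusted p = 0.131, limma, and 0.0271 with the replicate block). Its replicate 3 lay inside the range of serum. Mrpl3, a core protein near the peptidyl transferase centre, changed by 0.35 ± 0.27 at 24 h (adjusted p = 0.271) and Mrpl44, related to RNase III, by 0.39 ± 0.17 (adjusted p = 0.0722). With the replicate block both were called in limma, at adjusted p = 0.0238 and 0.00318. Mrps30, a large-subunit protein despite its name, was called higher at 24 h (0.65 ± 0.23, adjusted p = 0.0305, limma), a call lost with the span trend removed (0.42, adjusted p = 0.0592).

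Of the small subunit, Mrps16 read 5.35, 5.33 and 5.10 in serum and 6.89, 6.59 and 5.65 at 24 h, with no overlap. It rose by 1.11 ± 0.29 (2.16-fold, adjusted p = 0.00702, limma). Mrps14 rose by the same 1.11 ± 0.38 (adjusted p = 0.0258), but from values of 4.48, 3.83 and 2.68 at 24 h against 2.55, 2.60 and 2.52 in serum. Replicate 3 of 24 h thus lay just above serum. Mrps12, which sits at the decoding centre, went the other way in replicate 3, with 5.00, 5.00 and 4.06 at 24 h against 4.80, 4.75 and 4.86 in serum (-0.12 ± 0.26, adjusted p = 0.709). After removal of the span trend it was called lower in limma at 24 h (-0.52, adjusted p = 0.0143) and at 72 h (-0.43, adjusted p = 0.0372). Mrps22 (0.37 ± 0.26, adjusted p = 0.227) and Mrps27 (0.34 ± 0.18, adjusted p = 0.111), both specific to mitochondria, were not called at 24 h in limma without the block and were called with it (adjusted p = 0.0222 and 0.028). Mrps27 was also called with the span trend removed (0.76, adjusted p = 0.0221, limma).

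Mrps36 and Mrps15 were called higher at both 24 h and 72 h. Mrps36 read 2.62, 2.91 and 2.73 in serum, 3.72, 3.40 and 3.16 at 24 h and 3.49, 3.55 and 3.21 at 72 h. Its changes were 0.67 ± 0.15 (adjusted p = 0.00266) and 0.67 ± 0.15 (adjusted p = 0.0035, limma), with no overlap with serum at either time. Mrps15, a primary binding protein of the small subunit in bacteria, rose by 0.37 ± 0.12 (adjusted p = 0.0216) and 0.46 ± 0.12 (adjusted p = 0.00888, limma) at these times. The span-corrected fit lost its 24 h call (0.18, adjusted p = 0.195) and kept that at 72 h (0.40, adjusted p = 0.0139, limma).

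The paralogs of Mrps18 sit at different places of the ribosome and had different values. Mrps18a, a large-subunit protein, rose by 0.77 ± 0.21 at 24 h (adjusted p = 0.00843), from 2.81, 2.93 and 2.72 to 3.87, 3.74 and 3.17. Mrps18c, the small-subunit protein closest to that of bacteria, rose by 1.10 ± 0.39 (adjusted p = 0.0281), with values of 5.96, 5.11 and 4.13 at 24 h against 3.98, 4.05 and 3.87. Mrps18b, a small-subunit protein specific to mitochondria, read 5.24, 5.23 and 5.17 in serum and 5.30, 5.32 and 5.19 at 24 h, a change of 0.06 ± 0.10 (adjusted p = 0.643, limma). Its 6 values in serum and at 24 h thus spanned less than the gap between the libraries of 24 h in Mrps18c. At 72 h Mrps18b read 5.09, 5.12 and 4.86, below every serum value (-0.19 ± 0.10, adjusted p = 0.151, limma). With the span trend removed its change was -0.20 at 24 h (adjusted p = 0.0719) and -0.28 at 72 h (adjusted p = 0.0202, limma). In that fit the 24 h changes of Mrps18a and Mrps18c were 0.74 and 0.84 (adjusted p = 0.00853 and 0.0388, limma). The difference between paralogs was not tested.

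Between 24 h and 72 h, 72 of the 76 members had a negative change, with a median of -0.40 against -0.07 for all tested genes. A total of 7 were called lower (14.7% of all tested genes) and 1 higher (15.0% of all). The count depended on single libraries. Without replicate 3 of 24 h 56 members were called lower (30.6% of all tested genes), and without replicate 2 of 72 h 23 were (20.0% of all). Without replicate 1 of 24 h it was 3 (10.1%), without replicate 2 of 24 h 2 (8.83%), without replicate 1 of 72 h 2 (8.24%) and without replicate 3 of 72 h 3 (9.96%). Mrps2 was called higher in each of these. Mrpl9 and Mrpl47, conserved large-subunit proteins named here for this change, fell by 0.93 ± 0.19 (adjusted p = 0.00492) and 0.93 ± 0.23 (adjusted p = 0.0117, limma). Mrpl9 read 4.44, 4.13 and 3.57 at 24 h and 3.05, 3.36 and 2.93 at 72 h, where serum read 3.34, 3.40 and 3.24. Mrps27 fell by 0.70 ± 0.18 (adjusted p = 0.0129), with 4.96, 4.96 and 4.37 at 24 h and 3.97, 4.27 and 3.94 at 72 h. In all 3 genes every 72 h value lay below every 24 h value.

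Mrps2, a conserved small-subunit protein, was the only member called higher at 72 h than at 24 h. It read 4.79, 4.74 and 4.81 in serum, 4.72, 4.72 and 4.65 at 6 h, 4.59, 4.77 and 4.87 at 24 h and 5.34, 5.11 and 5.20 at 72 h. The 72 h values lay above all 9 others. The change from 24 h to 72 h was 0.48 ± 0.10 (adjusted p = 0.00665) and that from serum to 72 h was 0.44 ± 0.10 (adjusted p = 0.00474, limma), while at 24 h it was -0.03. With the span trend removed the change from serum to 72 h was 0.30 (adjusted p = 0.172) and that from 24 h to 72 h was 0.68 (adjusted p = 0.0128, limma).

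Other genes of mitochondrial translation were read from lists, whose counts stand against 33.6% of all tested genes called higher and 29.0% lower at 24 h, and 24.5% higher and 25.8% lower at 72 h. Of 8 ribosomal or ribosome-bound proteins with other names, 6 were called higher and 1 lower at 24 h. Chchd1, a small-subunit protein, changed most (1.59 ± 0.45, adjusted p = 0.00979), and Ptcd3, a small-subunit protein of the pentatricopeptide family, fell by 0.44 ± 0.15 (adjusted p = 0.0248, limma). With the span trend removed, 4 were called higher and 0 lower at 24 h, and Ptcd3 changed by -0.35 ± 0.15 (adjusted p = 0.0578, limma). At 72 h, 1 was called higher, Oxa1l, the membrane insertase to which the ribosome docks (0.48 ± 0.11), and 1 lower, again Ptcd3 (-0.45 ± 0.15), and 2 in each direction with the trend removed. Of 22 tested genes of ribosome assembly, 10 were called higher and 1 lower at 24 h, and 4 in each direction at 72 h. At 24 h the replicate block gave 4 lower and removal of the span trend 3. Mpv17l2, needed for assembly, rose by 1.45 ± 0.26 and 0.96 ± 0.26 at the respective times, Dhx30, an RNA helicase, fell by 0.57 ± 0.12 at 24 h and Rbfa, which matures the small-subunit RNA, by 0.76 ± 0.18 at 72 h. Of 14 translation factors, 5 were called higher and 3 lower at 24 h, led by Tsfm, an elongation factor (0.81 ± 0.19), and Lrpprc, which binds mitochondrial mRNA (-0.51 ± 0.13). With the span trend removed, 6 were called higher and 1 lower, and Lrpprc was no longer called (-0.05 ± 0.08, adjusted p = 0.585, limma). At 72 h, 1 was higher (Mtfmt, which formylates the initiator transfer RNA, 0.41 ± 0.10) and 4 were lower, led by Gfm2, a ribosome recycling factor (-0.65 ± 0.10).

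The genes of the transfer RNA synthetases of mitochondria gave 4 calls higher and 1 lower of 18 at 24 h, and 0 higher and 7 lower at 72 h in limma. For these and the next 2 lists, all tested genes gave 33.6% higher and 29.0% lower at 24 h, and 24.5% and 25.8% at 72 h. At 24 h the replicate block and removal of the span trend each gave 3 lower. Fars2, for phenylalanine, had the largest rise at 24 h (0.94 ± 0.23) and Mars2, for methionine, the largest fall (-0.55 ± 0.15), and Yars2, for tyrosine, had the largest fall at 72 h (-0.73 ± 0.23). With the span trend removed, the 24 h changes of Fars2 and Mars2 were 1.61 ± 0.38 and -0.92 ± 0.10. Of 9 genes that copy or transcribe mitochondrial DNA, 3 were called higher and 4 lower at 24 h, and 0 and 4 at 72 h. Removal of the span trend gave 2 and 4 at 24 h and 0 and 6 at 72 h. Polg2, a polymerase subunit, rose by 0.72 ± 0.20 at 24 h, Peo1, the helicase, fell by 1.09 ± 0.17 at 24 h, and Polrmt, the mitochondrial RNA polymerase, fell by 0.71 ± 0.13 at 72 h. Of 10 tested nuclear regulators of mitochondrial genes, 2 were called higher and 7 lower at 24 h, and 1 and 6 at 72 h. Esrra, a nuclear receptor that activates genes of oxidative metabolism, rose by 1.37 ± 0.23 at 24 h and 1.13 ± 0.23 at 72 h, and Myc, a broad activator of ribosome and mitochondrial genes, fell by 5.48 ± 0.11 and 5.79 ± 0.11. Myc had already changed by -3.93 at 6 h.

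The ribosome of the cytosol and the respiratory chain gave larger medians at 24 h than the mitochondrial ribosome. The 83 tested genes of cytosolic ribosomal proteins had a median change of 1.18 at 24 h, with 78 called higher (33.6% of all tested genes). At 72 h the median of these genes was 0.53, with 10 called higher (24.5% of all), and 21 with the span trend removed (26.1% of all). Their median span was 3232 bp, shorter than that of the members. The 85 genes named Nduf, Sdh, Uqcr, Cox or Atp5, mostly nuclear subunits of oxidative phosphorylation (OXPHOS), had a median span of 7382 bp, close to that of the members. Their median change was 1.07 at 24 h, with 76 higher and 1 lower (33.6% and 29.0% of all tested genes). At 72 h it was 0.53, with 29 higher and 1 lower (24.5% and 25.8% of all). At 24 h these groups ran from -0.14 (Rpl7l1) to 2.07 (Rpl39) and from -0.56 (Atp5sl) to 2.63 (Cox7a1). With the span trend removed, the medians at 24 h were 0.32 for the members, 0.83 for the cytosolic ribosome and 0.86 for OXPHOS. The 13 messenger RNAs of mitochondrial DNA had a median of 0.42 at 24 h, between -1.49 (mt-Nd6) and 1.70 (mt-Co3). Of these, 5 were called higher (33.6% of all tested genes) and 1 lower (29.0%). With the span trend removed they were 3 and 1 (35.2% and 27.05% of all). Their median was then -0.08, so its direction depended on that step. Like the members, the cytosolic and OXPHOS groups stood lower in replicate 3 of 24 h (medians of 0.58 and 0.45) than in replicate 1 (1.67 and 1.46).

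H3K9me2, dimethylation of a lysine of histone H3 found broadly over silent chromatin, was read over the members and over all genes. It is given as log2 reads in the bound library minus those in the input, averaged over the 2-kb bins of a gene. The median member was at -2.92 and -2.74 in the serum libraries, -2.74 and -2.84 at 24 h and -3.38 and -3.35 in LT2i. Over all 10873 genes with both values, the medians were -2.10 and -2.21, -2.18 and -2.21, and -3.17 and -3.13. Over all genes the level rose with gene span, and within span classes the members did not all stand on one side of other genes. In the class of the shortest genes the serum medians were -3.43 and -3.50 for members and -2.93 and -3.08 for all genes, and in the next class they were -2.42 and -2.49 against -2.72 and -2.86. In the third class they were -2.34 and -2.57 (7 members) against -2.28 and -2.43. In the fourth class they were -1.20 and -1.08 (4 members) against -1.90 and -1.97, and in the fifth -1.74 and -1.67 (4 members) against -1.08 and -1.14. At 24 h no gene was called in limma (0% of all, 76 members included), although 19 members and 2235 genes in all had an unadjusted p under 0.05. In LT2i, 28 members were called lower (62.2% of all genes) and 1, Mrpl54, higher (2.21% of all). The median change was -0.40 for members and -0.77 for all genes, not matched on span. In the class of the shortest genes the LT2i medians were -3.96 and -3.60 for members and -3.54 and -3.46 for all genes. In the second class they were -3.26 and -3.38 against -3.53 and -3.47, so members there did not fall less from serum. In the fifth class they were -2.23 and -2.20 against -2.29 and -2.29. Setting each library relative to its median gene adds the same 0.997 (log2) to the change of every gene, so the turn in direction is built into that scaling. The median changes then became 0.60 for members and 0.22 for all genes. On that scale 27 members were called higher (23.7% of all genes) and 1 lower, Mrps6 (8.69% of all). Mrps6, a conserved small-subunit protein named for this result, was lower on both scales. It read -0.73 and -0.93 in serum, -1.22 and -0.98 at 24 h and -2.44 and -2.43 in LT2i. Mrpl14 read -1.87 and -2.05 in serum, -2.25 and -1.79 at 24 h and -3.19 and -3.15 in LT2i, whereas Mrpl12 read -4.37 and -4.26 in serum, -3.85 and -3.52 at 24 h and -4.18 and -4.35 in LT2i. Its change was 0.63 ± 0.16 at 24 h (adjusted p = 0.166, limma) and 0.05 ± 0.16 in LT2i (adjusted p = 0.795, limma). Mrpl12 was among the lowest members in serum, and whether low starting values limited the fall of members was not tested. In the bin at the start of the gene, the median of 75 members was -3.57 and -3.63 in serum and -3.84 and -3.72 in LT2i, and 1 was called lower. All genes gave -3.68 and -3.78 in serum and the same -3.84 and -3.72 in LT2i, so the members were not below other genes in these libraries. At 24 h they were, at -3.53 and -3.67 against -3.46 and -3.50. The same pair of values recurred between genes in this bin, for example -4.38 and -4.17 in LT2i for Mrpl15, Mrpl44, Mrps21 and Mrpl43. Equal medians can thus be ties between low values, and no difference was tested.

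**Figure D4:**
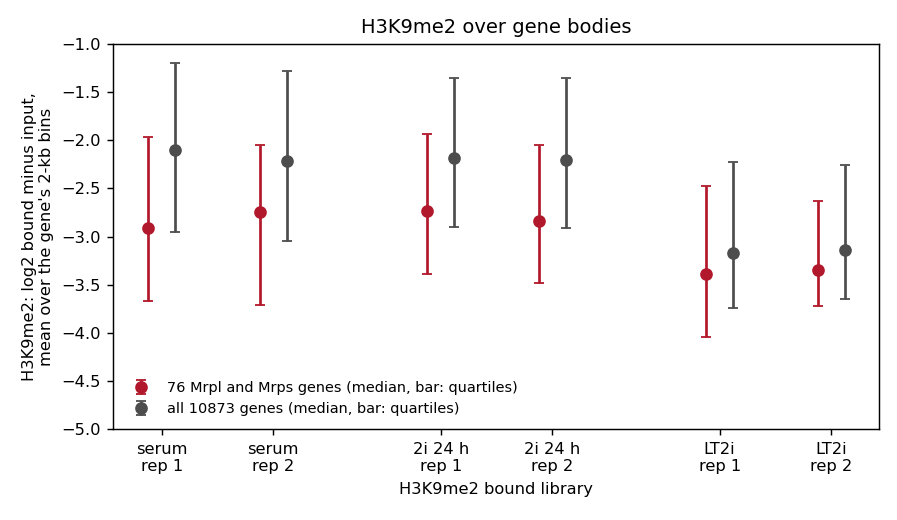
For each of the 6 bound libraries (x axis) the plot gives H3K9me2 over genes as log2 bound minus input (y axis), with the median and quartiles of the 76 members and of all 10873 genes. The members stand below all genes in each library, by less in LT2i (-3.38 and -3.35 against -3.17 and -3.13) than in serum (-2.92 and -2.74 against -2.10 and -2.21). The sets are not matched on gene span, and in the second span class the members stand above other genes in serum (-2.42 and -2.49 against -2.72 and -2.86).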

How the data were processed

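RNA-seq libraries were made with a TruSeq v2 kit and read as 50 bp single ends. Per the labels, the authors named Trim Galore 0.3.5 and TopHat2 2.0.11 in their processing notes, with build GRCm38. The authors deposited log2 expression values, adjusted by them for the length of each gene and for depth, with a common 75th percentile of 2.51. The counter and gene lengths were not given in the sources used here, so reads were not recovered and the depth is unknown. H3K9me2 was deposited by the authors as log2 reads per 2-kb bin. Values were fitted over all genes in R 4.3.3 with limma 3.58.1 (lmFit and eBayes), with all 12 RNA-seq libraries or all 6 bound libraries in 1 fit, a minimum mean of 0, and no covariates. Fits were tested on simulated data with independent noise in each gene. The simulation held no deviation shared by the genes of a library, so it cannot show how the calls fare under such deviations. Members, lists and tests were chosen with earlier results of these data known. The genes named were the 4 largest rises and falls among called members at each time, and members or genes chosen for their role. Mrpl9, Mrpl11, Mrpl28, Mrpl32, Mrpl33, Mrpl34, Mrpl38, Mrpl42, Mrpl47, Mrpl54, Mrps6 and the members called in all settings were chosen after their values were seen. The study describes the 3 expression samples per group as biological replicates. Whether the 2 ChIP samples came from separate cultures is not stated, so their p-values may measure technical spread. Replicate numbers were checked as pairing by the correlation of same-numbered deviations from the group means. Each of the 3 correlations was over 0.1 in serum with 6 h (0.26 to 0.66) and in serum with 24 h (0.13 to 0.54), so the blocked fit stands beside those comparisons. That was not so in serum with 72 h (0.05 to 0.47) or 24 h with 72 h (-0.32 to 0.85). Pairs with other numbers ran from -0.90 to 0.79 over all groups. The block was fitted over all 12 libraries, so it also took in the 72 h group, where pairing by number was not accepted. Span-trend removal used loess with a span of 0.5. Bisulfite files (NCBIM37) were not used, because no gene coordinates of that build were given.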

Additional observations from a re-analysis of the deposited data

Results flagged for a closer look

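The change from serum differed between 24 h and 72 h for 8 members, by the direct test of 72 h against 24 h (limma, adjusted p under 0.05). Of all tested genes, 29.7% were called in that comparison. The log2 change from 24 h to 72 h was -0.93 for Mrpl9, -0.93 for Mrpl47, -0.88 for Mrpl11, -0.82 for Mrpl28, -0.70 for Mrps27, -0.66 for Mrpl32 and -0.52 for Mrpl44. It was 0.48 for Mrps2, the only member of the 8 that was higher at 72 h. The 7 falling members were called in 8 (Mrpl44) to 15 (Mrpl9, Mrpl47) of 16 alternative settings, and Mrps2 in 15. With 3 samples per group, single outlying samples were not tested for.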

How the results depend on the processing

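Percents in parentheses are the share of all tested genes called in that setting. At 6 h (0 members, 14.3%), quantile normalisation called 1 (15.2%), removal of the span trend 1 (17.3%), leaving out the 4 libraries numbered 3, a setting chosen after seeing the data, 1 (13.7%), the replicate block 2 (19.9%) and the 6 libraries alone 6 (28.1%). At 24 h (42, 62.6%), 26 were called without the filter (45.3%), 25 with the 6 libraries alone (53.5%) and 9, all higher, at a log2 change of 1 or more (13.6% of all genes higher), while the replicate block called 53 (70.6%). At 72 h (7, 50.3%), quantile normalisation called 17 (14 higher, 52.8%), removal of the span trend 14 (8 higher, 53.7%), the replicate block 19 (15 higher, 59.4%), a log2 change of 1 or more 1 (17.9%) and leaving out the libraries numbered 3 called 24 (20 higher, 57.1%). From 24 h to 72 h (8, 29.7%), 4 were called without the filter (21.2%), 37 with the replicate block (36 lower, 45.8%) and 46 without the libraries numbered 3 (46.4%). In these last 2 comparisons the numbers were not taken as pairing, though the 6 pairs numbered 3 correlated at 0.47 to 0.85. Leaving out single libraries called 16 to 59 members at 24 h (53.1% to 71.6%), 6 to 12 at 72 h (42.4% to 50.7%) and 3 to 57 from 24 h to 72 h (17.4% to 54.3%), the 12 coming without replicate 3 of 72 h (50.7%). It gave medians of -0.17 to 0.00 at 6 h, 0.38 to 0.74 at 24 h and -0.03 to 0.30 at 72 h. For H3K9me2 in LT2i (29 called, 64.4%), 1 was called in the start bin (1.90%) and leaving out single libraries called 21 to 27 (51.6% to 57.6%). Centring called 28 (32.4%), 27 of them higher, and this reversed direction follows from the same amount being added to every gene. The expression calls of the members named here kept their direction under all alternatives, but 84 of 493 refits lost the call. Some of these members were chosen for being called in all settings, so part of that retention was set by the choice. Unknown depth prevents counting intervals for the RNA-seq values.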
